A study of Mus musculus with 28 samples.

Results

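The genes described here are 40 genes of meiosis and germ cells, taken by symbol. They are ordered by step: meiotic entry, meiotic cohesin, synaptonemal complex, recombination, and other germ cell genes. The list was chosen with earlier results of these data known, so shares of its genes set beside all genes are descriptive. Of the 40 genes, 35 stood in a table of 17342 genes measured by RNA-seq in mouse embryonic stem cells (ESCs). All 35 were among the 17338 genes tested, each of which reached a normalized count of 10 in 2 libraries or more. Rad21l, Tex12, Spo11, Rnf212 and Tuba3b were not analysed here. The study asks what Tet2, an enzyme that oxidizes 5-methylcytosine, contributes to transcription in ESCs apart from its catalysis. The cells were male ESCs of the V6.5 background, a mixed 129/C57BL/6 strain, grown in serum with the self-renewal factor LIF. They had been kept on feeder cells, were freed of these by pre-plating and spent the last night on gelatin. Tet2-WT is wild type for Tet2 (3 independent cultures), Tet2-Mut carries a mutant Tet2 (2 clones) and Tet2-KO is the Tet2 knockout (2 clones). The labels do not say what the mutation is or how the clones were derived from the wild-type cells, so a trait of a clone and an effect of its genotype cannot be told apart beyond the agreement of the clones.

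Meiosis is the pair of divisions that makes haploid gametes. Germ cells enter it through regulators such as Stra8, load a cohesin with meiosis-specific subunits onto their chromosomes, join homologous chromosomes with the synaptonemal complex and exchange DNA between them by repairing programmed breaks. In other cells many of these genes are held silent by promoter DNA methylation and by a Polycomb complex that E2F6 and the MGA-MAX dimer bring to DNA, and mouse ESCs transcribe a number of them at low to moderate levels without entering meiosis.

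The stretch upstream of a start site is where those repressors act, so the 250 bases before the listed start site are shown for 6 of the genes that passed the test in 2 comparisons, the smallest p first. Tex15, which ranks among them, has no sequence in the table used. Only the first listed window of each gene was used, and for some genes its start site lies inside the annotated gene. For Stag3 the listed site is 138280509, in a gene annotated from 138272514 to 138312397. What is said of a gene's motifs holds for that window alone. The sequences are from RefSeq for GRCm38.p6 (the mm10 build), are written 5′ to 3′ on the strand of the gene, and stand in lower case with motif matches in capitals. The motifs are the E2F core TCCCGC and the E-box CACGTG, the letters recognised by E2F6 and by MGA-MAX. Stag3 (chr5:138280259-138280508, plus strand) has an E-box. Tex14 (chr11:87404815-87405064, plus), Tuba3a (chr6:125286082-125286331, minus), Hsf2bp (chr17:32034509-32034758, minus) and Syce2 (chr8:84871861-84872110, plus) each have an E2F core. Stra8 (chr6:34920698-34920947, plus) has neither in this window, and its 5 CG dinucleotides are the fewest of the 6, beside 26 for Stag3.
Stag3: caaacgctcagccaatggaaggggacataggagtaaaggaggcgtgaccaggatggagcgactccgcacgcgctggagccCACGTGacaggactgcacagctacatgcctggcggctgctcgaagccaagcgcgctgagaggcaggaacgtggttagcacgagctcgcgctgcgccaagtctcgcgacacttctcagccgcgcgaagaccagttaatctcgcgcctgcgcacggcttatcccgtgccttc
Tex14: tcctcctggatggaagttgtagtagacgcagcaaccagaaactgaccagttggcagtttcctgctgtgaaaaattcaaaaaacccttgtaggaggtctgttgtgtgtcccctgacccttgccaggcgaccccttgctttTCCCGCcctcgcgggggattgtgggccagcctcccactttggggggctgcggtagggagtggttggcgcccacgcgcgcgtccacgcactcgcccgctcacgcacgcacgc
Tuba3a: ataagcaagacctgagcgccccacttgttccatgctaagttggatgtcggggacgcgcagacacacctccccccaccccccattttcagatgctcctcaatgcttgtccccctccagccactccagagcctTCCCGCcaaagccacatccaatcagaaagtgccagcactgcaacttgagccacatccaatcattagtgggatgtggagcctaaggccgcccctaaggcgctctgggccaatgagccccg
Stra8: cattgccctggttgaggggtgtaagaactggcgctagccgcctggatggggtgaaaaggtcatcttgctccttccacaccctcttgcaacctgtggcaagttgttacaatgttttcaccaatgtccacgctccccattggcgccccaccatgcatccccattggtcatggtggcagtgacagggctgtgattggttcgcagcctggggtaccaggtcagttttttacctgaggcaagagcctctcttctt
Hsf2bp: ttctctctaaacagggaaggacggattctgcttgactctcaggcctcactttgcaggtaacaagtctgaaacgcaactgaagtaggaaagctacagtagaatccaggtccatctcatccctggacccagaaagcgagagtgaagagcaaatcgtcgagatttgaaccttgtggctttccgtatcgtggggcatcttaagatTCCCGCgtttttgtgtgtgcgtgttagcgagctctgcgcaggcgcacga
Syce2: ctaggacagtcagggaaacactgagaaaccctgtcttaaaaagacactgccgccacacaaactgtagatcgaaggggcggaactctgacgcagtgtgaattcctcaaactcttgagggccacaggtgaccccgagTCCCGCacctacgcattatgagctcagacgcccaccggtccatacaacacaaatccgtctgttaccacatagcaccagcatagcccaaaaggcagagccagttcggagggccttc

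The authors deposited normalized counts, which are reads assigned to a gene divided by a size factor of the library. The libraries held 41.9 M to 58.5 M assigned reads, and 3 reads correspond to a normalized count of 2.5 to 3.54. Tet2 itself had a normalized count of 10887 ± 1029 in Tet2-WT (SD, n = 3), 11586 ± 2255 in Tet2-Mut (n = 2) and 4915 ± 411 in Tet2-KO (n = 2), and Tet2-KO against Tet2-WT gave a log2 fold change of -1.15 (SE 0.12, limma adjusted p = 0.00522). Each of the 10 ESC markers was measured in every library, with Pou5f1 between 52319 and 72697. By limma, Tdgf1 was lower in Tet2-KO and Nanog lower in Tet2-Mut than in Tet2-WT, and the sum of the 10 was 276043 in Tet2-KO replicate 1 and 318536 to 329830 in the other libraries. The 17338 genes of a library had a median difference from the Tet2-WT mean between -0.0018 and 0.0102 on the log2 scale, so changes are relative to a common level near 0. The p-values come from limma on log2(normalized count + 1), are adjusted over all genes tested and use a threshold of 0.05. They measure the spread between these cultures and clones, and fold changes on this scale understate the change of genes with low counts.

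In Tet2-KO, genes from each of the 5 steps were lower than in Tet2-WT. Of the 35 genes, 10 passed the test as lower (Stra8, Stag3, Syce1, Syce2, Hormad1, Hsf2bp, Tex11, Tex14, Tuba3a and Dpep3) and 0 as higher, where 2.91% of all genes tested were called lower and 3.0% higher. edgeR called 9 lower and 0 higher (2.66% of all genes lower and 3.74% higher), and DESeq2 15 and 0 (5.6% and 5.89%). The calls that DESeq2 made and limma did not were Smc1b, Hormad2, Dmc1, Meiob and Slc25a31 in Tet2-KO against Tet2-WT, Stag3, Msh5 and Ddx4 in Tet2-Mut against Tet2-WT, and Rec8, Hormad1 and Tex11 in Tet2-KO against Tet2-Mut. The median log2 fold change of the 35 was -0.51, against -0.0021 for all genes. Since the 35 were chosen with earlier results of these data known, these counts and shares describe the list and do not test it. In Tet2-Mut, 3 of the 35 were lower than in Tet2-WT (Smc1b, Hormad2 and Tuba3a, with 1.98% of all genes called lower) and 1 was higher (Tex15, with 1.44% called higher), and the median was -0.10. Between the clones of both genotypes, 9 genes were lower in Tet2-KO than in Tet2-Mut (Stra8, Stag3, Syce1, Syce2, Hsf2bp, Tex15, Tex14, Ddx4 and Dpep3, with 3.55% of all genes called lower) and 0 were higher (2.64% called higher), with a median of -0.35. Without Tet2-Mut replicate 1, 10 were lower and 2 higher (Smc1b and Hormad2), with a median of -0.19. The 3 comparisons share libraries, so their values are given side by side and are not independent of each other.

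The library medians of the 35 genes were -0.53 and -0.50 in the Tet2-KO libraries and -0.01 and -0.11 in the Tet2-Mut libraries, relative to the Tet2-WT mean. Their summed normalized count was 25729, 24025 and 24197 in the Tet2-WT libraries, 25207 and 23194 in the Tet2-Mut libraries, and 17144 and 17333 in the Tet2-KO libraries. Both Tet2-KO clones thus lay below the other 5 libraries. In bulk RNA, fewer cells that transcribe a gene and less RNA in each cell cannot be told apart. Markers of other cell states moved with the same libraries. Of 18 fibroblast markers 16 were measured, and their library medians were 0.56 and 0.19 in Tet2-Mut and 1.58 and 0.89 in Tet2-KO. Their sum ran from 47290 to 52468 in Tet2-WT, was 57993 and 42443 in Tet2-Mut, and was 71883 and 57687 in Tet2-KO. Most of that sum was Fn1, with 43824 to 48307 in Tet2-WT, 52509 and 38669 in Tet2-Mut, and 57216 and 49846 in Tet2-KO. Genes of formative and primed pluripotency (9 of 9 measured) had medians of 2.93 and 2.01 in Tet2-KO, with sums of 15820 and 11599 against 4467 to 5350 in Tet2-WT. The Tet2-Mut clones lay apart for these genes, with medians of 0.76 and -0.45 and sums of 7104 and 2664.5. Genes of the rare two-cell-like ESC state (6 of 11 measured) had medians of -1.60 and -3.11 in Tet2-KO and 0.49 and 0.10 in Tet2-Mut. Their sums were 55.7 and 31.0 in Tet2-KO, 217 and 160 in Tet2-Mut, and 148 to 226 in Tet2-WT. Tmem92 was listed at 0 in either Tet2-KO clone. The part of these cell states in the lower germ cell genes was not tested.

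The count of 10 depended on single libraries. It was 2 without Tet2-WT replicate 3, 3 without Tet2-WT replicate 1, 4 when either Tet2-WT replicate 2 or Tet2-KO replicate 1 was left out, and 15 without either Tet2-Mut library. The number called among all genes moved with it, from 1025 to 85, 94, 99 (Tet2-WT replicate 2), 155 (Tet2-KO replicate 1), and 2160 and 2143. Stag3 and Tex14 kept their call against Tet2-WT with each of the 7 libraries left out in turn, and Stra8, Tex15 and Tex14 kept theirs in Tet2-KO against Tet2-Mut.

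**Figure D1:**
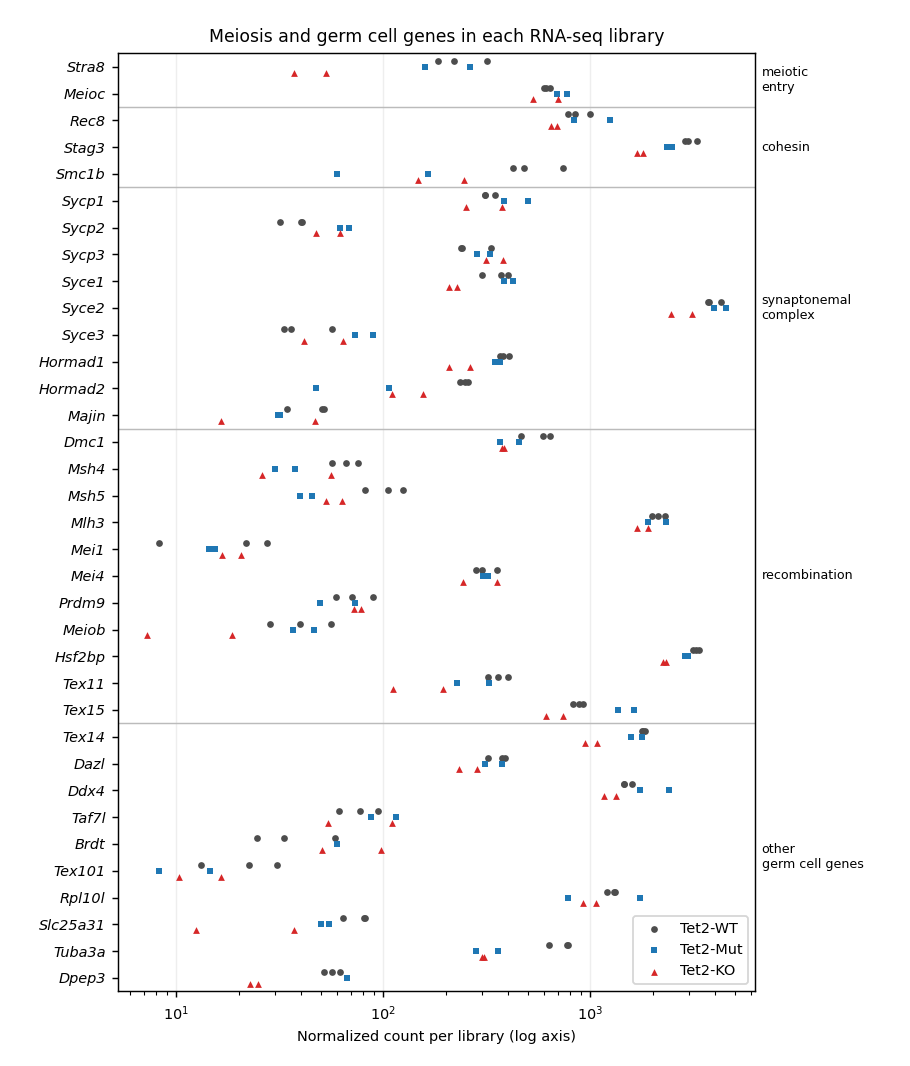
Normalized count (log axis) of each of the 35 measured meiosis and germ cell genes in every library, grouped by step; each point is 1 library of Tet2-WT (circles, n = 3), Tet2-Mut (squares, n = 2) or Tet2-KO (triangles, n = 2). For 15 genes both Tet2-KO points lie to the left of the other 5, among them Stra8, Stag3, Syce1, Hsf2bp and Tex14. For 0 genes do both lie to the right. Over all genes tested, these patterns held for 11.1% and 11.7%.

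Among the regulators of meiotic entry, Stra8 (chr6:34920163-34939344), the retinoic acid target that starts the meiotic programme, had the lowest log2 fold change of the 35 in Tet2-KO. Its normalized count was 219.7, 184 and 319 in the Tet2-WT libraries, 159 and 262 in the Tet2-Mut libraries, and 52.6 and 37.2 in the Tet2-KO libraries. The Tet2-KO values lay below all others, and those of Tet2-WT and Tet2-Mut overlapped. Stra8 fell by 2.38 on the log2 scale in Tet2-KO against Tet2-WT (SE 0.32, limma adjusted p = 0.00816), a mean 5.36-fold lower, and had a log2 fold change of -2.18 against Tet2-Mut (SE 0.35, adjusted p = 0.00875). Without Tet2-WT replicate 3, the highest of the wild-type libraries, the former had an adjusted p of 0.0511. Meioc, which keeps germ cells in an extended meiotic prophase, had normalized counts between 601 and 637 in Tet2-WT, 694 and 772 in Tet2-Mut, and 526 and 699.8 in Tet2-KO, and passed limma's test in no comparison.

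Meiotic cohesin holds sister chromatids together and forms the chromosome axis, and of its 3 measured subunits limma called Stag3 lower in Tet2-KO and Smc1b lower in Tet2-Mut than in Tet2-WT. Stag3 (chr5:138272514-138312397), the subunit found in all meiotic cohesin rings, had 3262, 2951 and 2881 normalized counts in Tet2-WT, 2487 and 2352 in Tet2-Mut, and 1796 and 1674 in Tet2-KO. The 3 groups did not overlap, and ran in the order Tet2-WT, Tet2-Mut, Tet2-KO. Stag3 fell by 0.80 on the log2 scale in Tet2-KO against Tet2-WT (SE 0.09, limma adjusted p = 0.00522) and by 0.48 against Tet2-Mut (SE 0.09, adjusted p = 0.019), and Tet2-Mut had a log2 fold change of -0.32 against Tet2-WT (adjusted p = 0.0737). The call against Tet2-Mut was lost without Tet2-KO replicate 2 (adjusted p = 0.0701) and without Tet2-WT replicate 2 (0.0568). Part of Stag3 overlaps Gpc2 in the annotation, which had mean normalized counts of 290.3 in Tet2-WT, 312 in Tet2-Mut and 285 in Tet2-KO.

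Smc1b (chr15:85064689-85131957), the meiotic form of the SMC1 ATPase, had its lowest mean in Tet2-Mut. Its normalized count was 741, 477 and 421 in Tet2-WT, 164 and 59.8 in Tet2-Mut, and 148 and 245 in Tet2-KO. All 4 libraries of the altered genotypes lay below Tet2-WT and overlapped each other. Smc1b fell by 2.41 on the log2 scale in Tet2-Mut against Tet2-WT (SE 0.42, limma adjusted p = 0.0262), while Tet2-KO had a fold change of -1.47 against Tet2-WT (SE 0.42, adjusted p = 0.0728) and of 0.93 against Tet2-Mut (SE 0.46, adjusted p = 0.299). DESeq2, and limma on only the 2 groups compared, called it lower in Tet2-KO than in Tet2-WT. The call in Tet2-Mut was lost without Tet2-Mut replicate 2 (adjusted p = 0.0517) and without Tet2-WT replicate 1, 2 or 3 (0.146, 0.138 and 0.0671). Fam118a, which shares 52892 bases with Smc1b, had mean normalized counts of 1272, 1361 and 1501 in Tet2-WT, Tet2-Mut and Tet2-KO. Rec8, the cleavable subunit that separase cuts, had 996, 845 and 778 normalized counts in Tet2-WT, 832 and 1247 in Tet2-Mut, and 689 and 644 in Tet2-KO, with both Tet2-KO libraries the lowest of the 7. limma called it in no comparison (log2 fold change of 0.23 in Tet2-Mut against Tet2-WT and of -0.61 in Tet2-KO against Tet2-Mut, adjusted p = 0.109 for the latter), and DESeq2, or limma without Tet2-Mut replicate 1, called the latter.

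The synaptonemal complex zips homologous chromosomes together. Of its 9 measured genes, 3 were lower in Tet2-KO than in Tet2-WT and 0 higher (2.91% and 3.0% of all genes tested). The median log2 fold change of the 9 was -0.51. The 3 lower ones were the central element genes Syce1 and Syce2 and the axis gene Hormad1. Syce1 (chr7:140777229-140787854) had 369, 301 and 400.1 normalized counts in Tet2-WT, 385 and 423 in Tet2-Mut, and 228 and 207 in Tet2-KO. Both Tet2-KO values lay below the rest, and Tet2-Mut overlapped Tet2-WT. Its log2 fold change was -0.70 against Tet2-WT (SE 0.17, limma adjusted p = 0.0443) and -0.89 against Tet2-Mut (SE 0.19, adjusted p = 0.0247). The former was lost without any one of the Tet2-WT or Tet2-KO libraries (adjusted p up to 0.157), and the latter without Tet2-KO replicate 1 or 2, Tet2-Mut replicate 2 or Tet2-WT replicate 1 (up to 0.0863).

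Syce2 (chr8:84872111-84887446), whose product builds the central element, had 4283, 3760.0 and 3726 normalized counts in Tet2-WT, 4544 and 3947 in Tet2-Mut, and 2451 and 3101 in Tet2-KO. The Tet2-KO clones were again the lowest, and Tet2-Mut overlapped Tet2-WT. Its log2 fold change was -0.51 against Tet2-WT (SE 0.12, limma adjusted p = 0.0396) and -0.62 against Tet2-Mut (SE 0.13, adjusted p = 0.0242). The first of these was lost without any Tet2-WT library or Tet2-KO replicate 1 (adjusted p up to 0.24), and the second without Tet2-KO replicate 1 or Tet2-WT replicate 2 or 3 (up to 0.111). Its neighbour Gcdh, which overlaps it by 1060 bases, had mean normalized counts of 2617, 3099 and 2022 in Tet2-WT, Tet2-Mut and Tet2-KO.

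The HORMA-domain genes, whose products mark unsynapsed axes, differed from each other. Hormad1 (chr3:95559677-95587863) had 403, 380.3 and 368 normalized counts in Tet2-WT, 347 and 365 in Tet2-Mut, and 207 and 264 in Tet2-KO. It fell by 0.71 on the log2 scale in Tet2-KO against Tet2-WT (SE 0.16, limma adjusted p = 0.0342), and this call was lost without any Tet2-WT library or Tet2-KO replicate 1 (up to 0.199). Hormad2 (chr11:4345801-4441198) had 258, 233 and 248 normalized counts in Tet2-WT, 106 and 47.3 in Tet2-Mut, and 110.4 and 156 in Tet2-KO. Here Tet2-Mut held the lowest pair of libraries, Tet2-KO lay between it and Tet2-WT, and no groups overlapped. Hormad2 fell by 1.78 on the log2 scale in Tet2-Mut (SE 0.33, adjusted p = 0.0305), and its fold change in Tet2-KO against Tet2-WT was -0.90 (SE 0.33, adjusted p = 0.143). The call was lost without Tet2-Mut replicate 2 (adjusted p = 0.0622) and without Tet2-WT replicate 1, 2 or 3 (0.167, 0.148 and 0.0876).

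The genes for the lateral and transverse filaments passed the test in no comparison by limma, edgeR or DESeq2. Sycp1, the transverse filament, had normalized counts of 310 to 346 in Tet2-WT, 381 and 499 in Tet2-Mut, and 250.2 and 374 in Tet2-KO, with a log2 fold change of -0.51 in Tet2-KO against Tet2-Mut (SE 0.22, limma adjusted p = 0.241). Sycp3 of the lateral element had 238 to 330 in Tet2-WT, 284 and 328 in Tet2-Mut, and 315 and 378 in Tet2-KO. Sycp2, its partner, was low throughout, with 31.6, 40.5 and 40.1 in Tet2-WT, 68.0 and 61.7 in Tet2-Mut, and 61.9 and 47.6 in Tet2-KO. It was the 1 gene of the 35 whose Tet2-WT libraries lay below all others (8.83% of all genes tested). Syce3 of the central element (33.3 to 56.7 in Tet2-WT, 89.6 and 73.3 in Tet2-Mut, 41.3 and 64.1 in Tet2-KO) and Majin, which tethers telomeres to the nuclear envelope (34.1 to 51.9, 30.9 and 31.8, and 16.5 and 46.5), did not pass either.

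In recombination, 2 of 11 measured genes were lower in Tet2-KO than in Tet2-WT and 0 higher (2.91% and 3.0% of all genes tested). The median log2 fold change of the 11 was -0.50. Hsf2bp (chr17:31944769-32034895), which helps load recombinases onto breaks by binding BRCA2, had 3356, 3225 and 3138 normalized counts in Tet2-WT, 2953 and 2884 in Tet2-Mut, and 2236 and 2335 in Tet2-KO. The groups did not overlap and kept the order seen for Stag3. Hsf2bp fell by 0.50 on the log2 scale against Tet2-WT (SE 0.07, limma adjusted p = 0.00949) and by 0.35 against Tet2-Mut (SE 0.08, adjusted p = 0.0322). The former was lost without any Tet2-WT library or Tet2-KO replicate 1 (adjusted p up to 0.0627), and the latter with any library left out except Tet2-Mut replicate 1 (up to 0.123). Tex11 (chrX:100838648-101059639), an X-linked gene needed for crossovers in males, had 400.3, 322 and 358 normalized counts in Tet2-WT, 228 and 325 in Tet2-Mut, and 111 and 193 in Tet2-KO. It fell by 1.28 on the log2 scale against Tet2-WT (SE 0.26, adjusted p = 0.0265), which was lost without any Tet2-WT library or Tet2-KO replicate 1 (up to 0.16).

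Tex15 (chr8:33516689-33592503), which acts in break repair and in silencing of transposons in male germ cells, was the 1 gene of the 35 that limma, on all 7 libraries, called higher in Tet2-Mut than in Tet2-WT. Ddx4 was a further one by DESeq2 and by limma without Tet2-Mut replicate 1. The normalized count of Tex15 was 826, 919.8 and 880.4 in Tet2-WT, 1630.1 and 1355 in Tet2-Mut, and 740.1 and 614 in Tet2-KO. No groups of Tex15 overlapped, with Tet2-Mut highest and Tet2-KO lowest. The log2 fold change was 0.76 in Tet2-Mut against Tet2-WT (SE 0.13, limma adjusted p = 0.0234), -0.37 in Tet2-KO against Tet2-WT (adjusted p = 0.117) and -1.14 in Tet2-KO against Tet2-Mut (SE 0.14, adjusted p = 0.00417). The rise in Tet2-Mut was lost without Tet2-WT replicate 1, 2 or 3 (adjusted p = 0.136, 0.132 and 0.0707).

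Several strand exchange and crossover genes had their 3 highest values in the Tet2-WT libraries without passing limma's test. Over all genes tested, 8.91% had their 3 highest values there. Dmc1, the meiotic recombinase, had 637, 591 and 461 normalized counts in Tet2-WT, 451 and 368 in Tet2-Mut, and 375 and 384 in Tet2-KO, with log2 fold changes of -0.45 in Tet2-Mut and -0.56 in Tet2-KO (limma adjusted p = 0.177 and 0.0895). Msh5 of the crossover-promoting MutS pair had 105, 124 and 81.4 in Tet2-WT, 45.3 and 39.6 in Tet2-Mut, and 52.6 and 63.1 in Tet2-KO, with fold changes of -1.25 and -0.81 (adjusted p = 0.0547 and 0.139). Its partner Msh4 had 56.7 to 75.3 in Tet2-WT, 29.9 and 37.6 in Tet2-Mut, and 25.8 and 55.8 in Tet2-KO. DESeq2 called Dmc1 lower in Tet2-KO and Msh5 lower in Tet2-Mut, and limma called both of these on only the 2 groups compared. Thus both MutS genes had lower means in either altered genotype than in Tet2-WT, at levels where a library holds few reads.

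Meiob, a single-strand DNA binding protein of meiosis, had 55.8, 39.5 and 28.3 normalized counts in Tet2-WT, 46.3 and 36.7 in Tet2-Mut, and 18.6 and 7.24 in Tet2-KO, the last of which rests on 7 reads. In Tet2-KO its log2 fold change from Tet2-WT came to -1.68 (SE 0.49, limma adjusted p = 0.0794). Mlh3, an endonuclease subunit that resolves crossovers, had 1984 to 2287 in Tet2-WT, 1892 and 2319 in Tet2-Mut, and 1673 and 1895 in Tet2-KO. Genes for making the breaks showed no such separation: Mei1 (8.26 to 27.5 in all 7 libraries), Mei4 (244 to 353) and Prdm9, the histone methyltransferase that places the breaks (49.4 to 89.4), overlapped between Tet2-KO and Tet2-WT. limma called none of these 4 genes or Meiob in any comparison, and DESeq2 called Meiob lower in Tet2-KO than in Tet2-WT.

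**Figure D2:**
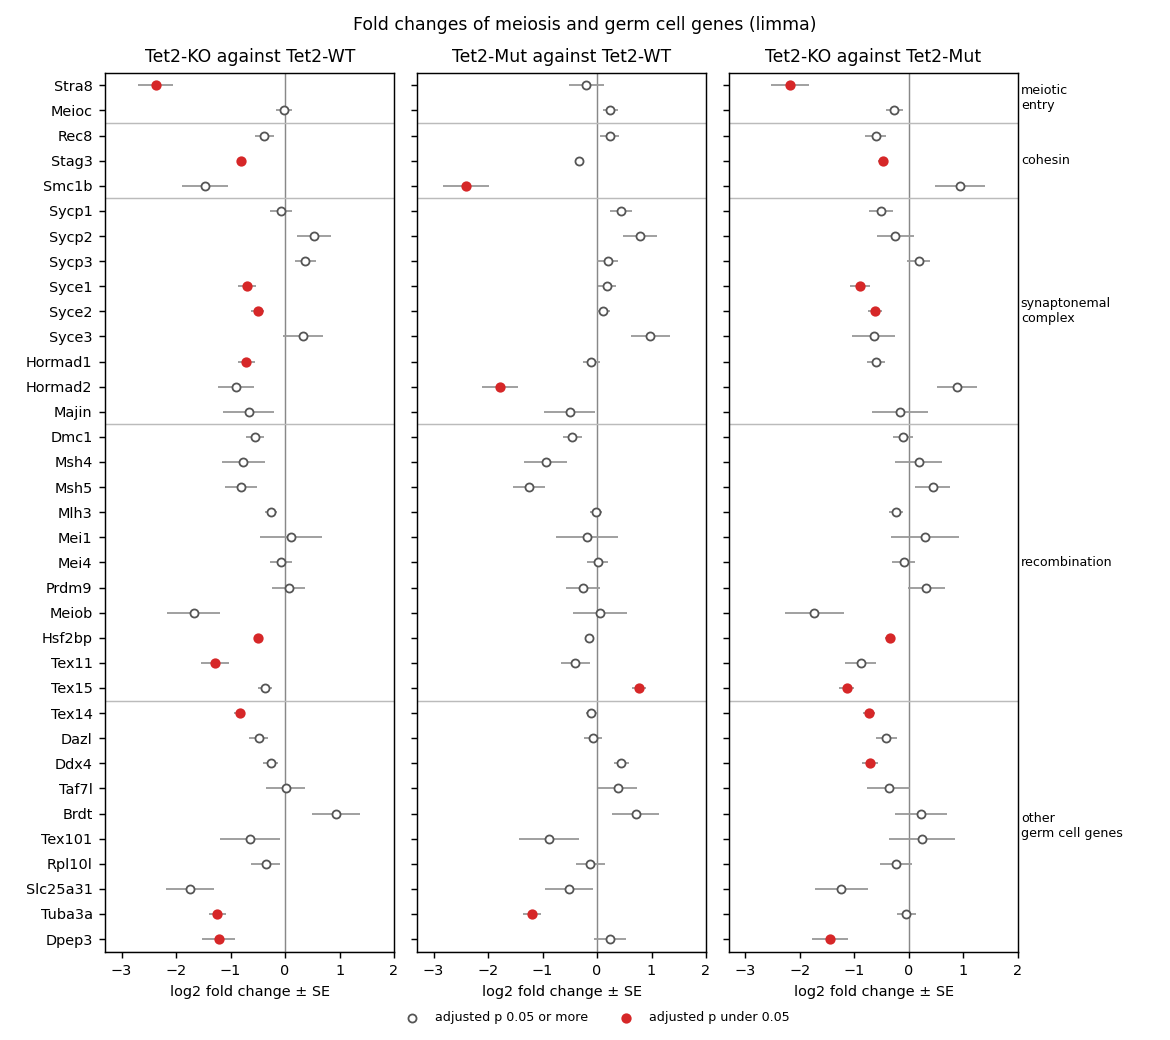
Log2 fold change (point) with its SE (bar) of the 35 genes in the 3 comparisons, by step; filled points have a limma adjusted p under 0.05 and open points do not. Filled points lie to the left of 0 in every panel (10, 3 and 9 genes), except that of Tex15 in Tet2-Mut against Tet2-WT. Over all genes tested, 2.91%, 1.98% and 3.55% were called lower in these comparisons.

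Of the 10 other germ cell genes measured, 3 were lower in Tet2-KO than in Tet2-WT and 0 higher (2.91% and 3.0% of all genes tested). The median log2 fold change of the 10 was -0.56. Tex14 (chr11:87405013-87555823), which keeps the bridges between germ cells open, had 1791, 1769 and 1842 normalized counts in Tet2-WT, 1788 and 1575 in Tet2-Mut, and 942 and 1081 in Tet2-KO. Tet2-WT and Tet2-Mut overlapped, and both Tet2-KO clones lay well below. Tex14 fell by 0.83 on the log2 scale against Tet2-WT (SE 0.10, limma adjusted p = 0.00551) and by 0.73 against Tet2-Mut (SE 0.11, adjusted p = 0.00641), and the range of adjusted p with each library left out was 0.00104 to 0.0451 and 0.00631 to 0.0334.

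Tuba3a (chr6:125278270-125286081), a testis alpha-tubulin, was lower in both altered genotypes. It had 771, 629 and 779 normalized counts in Tet2-WT, 356 and 279.8 in Tet2-Mut, and 301 and 308 in Tet2-KO. The 4 clones overlapped each other and lay below each Tet2-WT library. The log2 fold change was -1.24 in Tet2-KO (SE 0.16, limma adjusted p = 0.00736) and -1.19 in Tet2-Mut (SE 0.16, adjusted p = 0.0141), and that between the clones was -0.05 (SE 0.18, adjusted p = 0.908). The call in Tet2-KO was lost without Tet2-WT replicate 1 or 3 (adjusted p = 0.0522 and 0.0542), and that in Tet2-Mut without Tet2-WT replicate 1, 2 or 3 (0.106, 0.0763 and 0.0526). Tuba3b is a near copy of Tuba3a, and no source used here says how reads that match both were counted. The somatic relative Tuba1a was higher in Tet2-KO than in Tet2-WT, with 8024 ± 85.2 normalized counts in Tet2-WT (SD, n = 3) and 11389 ± 740 in Tet2-KO (n = 2). limma did not call the relatives Tuba1b (means of 55697 in Tet2-WT and 58715 in Tet2-KO) or Tuba1c (12344 and 13280).

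Dpep3 (chr8:105973520-105979419), a dipeptidase of the testis cell surface, had 61.6, 51.8 and 56.7 normalized counts in Tet2-WT, 66.9 and 66.6 in Tet2-Mut, and 22.7 and 24.8 in Tet2-KO. The groups did not overlap, with Tet2-KO lowest and Tet2-Mut highest. Its log2 fold change was -1.22 against Tet2-WT (SE 0.30, limma adjusted p = 0.0485) and -1.45 against Tet2-Mut (SE 0.33, adjusted p = 0.0342). The first was lost without any Tet2-WT or Tet2-KO library (adjusted p up to 0.199) and with edgeR, and the second without each of the 7 libraries (0.0522 to 0.115).

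Ddx4, the RNA helicase known as VASA that marks germ cells, had 1453, 1462 and 1592 normalized counts in Tet2-WT, 1743 and 2410 in Tet2-Mut, and 1339 and 1165 in Tet2-KO. The groups did not overlap. Ddx4 (chr13:112598333-112652633) was lower in Tet2-KO than in Tet2-Mut by 0.71 on the log2 scale (log2 fold change -0.71, SE 0.15, limma adjusted p = 0.0266), a call lost with any library left out except Tet2-Mut replicate 1 (up to 0.105), and its changes against Tet2-WT did not pass with limma. Dazl, an RNA-binding protein that licenses germ cells for meiosis, had 386, 375 and 319.8 in Tet2-WT, 375 and 312 in Tet2-Mut, and 283 and 233 in Tet2-KO, and passed limma's test in no comparison.

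Slc25a31, the testis form of the mitochondrial ADP/ATP carrier, had 81.6, 81.0 and 63.7 normalized counts in Tet2-WT, 54.6 and 50.2 in Tet2-Mut, and 12.4 and 37.2 in Tet2-KO. In Tet2-KO its log2 fold change from Tet2-WT came to -1.75 (SE 0.45, limma adjusted p = 0.0534), so that the groups were apart and limma's threshold was missed. DESeq2 called it lower, as did limma with a pseudocount of 10, on only the 2 groups compared, or without Tet2-KO replicate 2 or either Tet2-Mut library. Its somatic relative Slc25a4 had means of 12622, 15316 and 8437 in Tet2-WT, Tet2-Mut and Tet2-KO. limma called Slc25a4 lower in Tet2-KO than in Tet2-Mut (log2 fold change -0.84, limma adjusted p = 0.0246), a value not set beside those of its chromosome. Rpl10l, a retrogene that replaces the ribosomal protein gene Rpl10 in spermatocytes, had 1198 to 1316 in Tet2-WT, 1739 and 782 in Tet2-Mut, and 923 and 1071 in Tet2-KO. This puts the Tet2-Mut clones at both ends. Rpl10 itself had means of 49592, 51517 and 50058 in Tet2-WT, Tet2-Mut and Tet2-KO, and reads of one could be counted to the other. Taf7l, a testis paralog of a TFIID subunit, and Brdt, the testis bromodomain protein, had ranges over the 7 libraries of 53.8 to 115 and 24.5 to 97.0, and Tex101, a germ cell surface protein, of 8.24 to 30.7. limma called none of Slc25a31, Rpl10l, Taf7l, Brdt and Tex101 in any comparison on all 7 libraries. For Rpl10l the log2 fold change against Tet2-WT was -0.35 in Tet2-KO and -0.12 in Tet2-Mut. The latter was 0.45 without Tet2-Mut replicate 2. The highest fold change of the 35 in Tet2-KO against Tet2-WT was that of Brdt at 0.94 (adjusted p = 0.241).

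Taken pair by pair, 23 of the 35 genes had both Tet2-KO libraries below every Tet2-WT library and 1 had them above (22.8% and 21.9% of all genes tested). For Tet2-Mut against Tet2-WT these numbers were 11 and 8 (19.8% and 20.9%). They were 17 and 3 for Tet2-KO against Tet2-Mut (21.5% and 23.3%). Across the 3 groups, the commonest order had Tet2-KO at the bottom. Both Tet2-KO libraries lay below the other 5 for 15 of the 35 genes (42.9%, where this held for 11.1% of all genes tested) and above them for 0 (11.7% of all genes). The 15 were Stra8, Rec8, Stag3, Syce1, Syce2, Hormad1, Meiob, Hsf2bp, Tex11, Tex15, Tex14, Dazl, Ddx4, Slc25a31 and Dpep3. All 3 Tet2-WT libraries lay above the 4 clones of the altered genotypes for 10 genes (28.6%, against 8.91% of all genes): Stag3, Smc1b, Hormad1, Hormad2, Dmc1, Msh4, Msh5, Hsf2bp, Slc25a31 and Tuba3a. Both Tet2-Mut libraries lay above all others for 5 genes (14.3%, against 9.74%), namely Sycp1, Syce3, Tex15, Ddx4 and Dpep3, and below all others for Hormad2 and Msh5 (5.71%, against 8.97%). As the 35 genes were chosen with earlier results of these data known, these shares are descriptive.

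Tex15, Syce2 and Dpep3 lie on chromosome 8, where the genes as a whole differed between the groups. The 861 genes tested there had library medians of 0.29 and 0.27 in Tet2-Mut and -0.28 and -0.24 in Tet2-KO, relative to the Tet2-WT mean. Their median log2 fold change was -0.26 in Tet2-KO against Tet2-WT, 0.27 in Tet2-Mut against Tet2-WT and -0.52 in Tet2-KO against Tet2-Mut, and in the last comparison 46.0% of them were called lower. Relative to that median, Syce2 stood at -0.24 in Tet2-KO against Tet2-WT and at -0.10 in Tet2-KO against Tet2-Mut. Dpep3 stood at -0.96 and -0.93 in these comparisons, and at -0.03 in Tet2-Mut against Tet2-WT. Tex15 stood at 0.49 in Tet2-Mut against Tet2-WT and at -0.62 in Tet2-KO against Tet2-Mut. The part of the chromosome in the changes of these 3 genes was not tested. Of the other chromosomes with a member, chromosome 14 had a median over 0.1 in size in any comparison: its 569 genes stood at 0.22 in Tet2-Mut against Tet2-WT and at -0.23 in Tet2-KO against Tet2-Mut, beside 0.23 and -0.61 for Rec8, and its part in the values of Rec8 was not tested. Of the 32 genes outside chromosome 8, Rec8 included, 8 were lower and 0 higher in Tet2-KO against Tet2-WT (median -0.53). In Tet2-Mut against Tet2-WT 3 were lower and 0 higher (median -0.12), and in Tet2-KO against Tet2-Mut 6 and 0 (median -0.26). Over all genes tested, 2.91%, 1.98% and 3.55% were called lower and 3.0%, 1.44% and 2.64% higher in these comparisons.

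**Figure D3:**
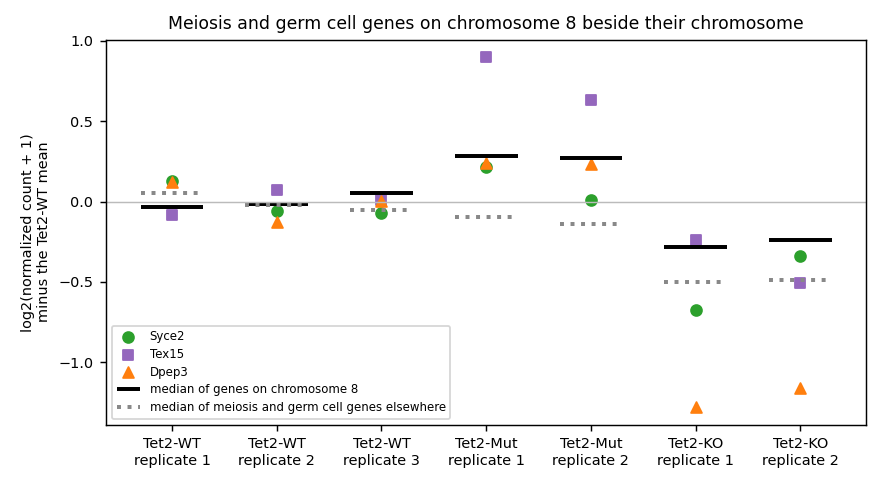
Difference of log2(normalized count + 1) from the Tet2-WT mean in each library for Syce2 (circles), Tex15 (squares) and Dpep3 (triangles), with the median of all 861 genes tested on chromosome 8 (solid line) and of the 32 meiosis and germ cell genes on other chromosomes (dotted line). The chromosome lies near 0.28 in both Tet2-Mut libraries and at -0.28 and -0.24 in the Tet2-KO libraries, Dpep3 lies below that line in Tet2-KO, and Tex15 lies above it in Tet2-Mut.

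Among 24 further meiosis genes measured, 2 were lower in Tet2-KO than in Tet2-WT and 0 higher (2.91% and 3.0% of all genes tested). The median log2 fold change of the 24 was -0.17. In Tet2-Mut 3 were lower and 0 higher (1.98% and 1.44% of all genes tested), with a median of -0.007. Between Tet2-KO and Tet2-Mut limma called 0, with 3 at an unadjusted p under 0.05, edgeR called 0 and DESeq2 called 1, Terb1. Against Tet2-WT, DESeq2 called 6 lower in Tet2-KO and 5 lower in Tet2-Mut (5.6% and 4.62% of all genes tested). Fkbp6, a cochaperone of the synaptonemal complex and the piRNA pathway, had 146, 113 and 163 normalized counts in Tet2-WT, 26.8 and 19.3 in Tet2-Mut, and 8.26 and 26.9 in Tet2-KO. It was lower in both genotypes, with log2 fold changes of -3.13 in Tet2-KO (SE 0.48, limma adjusted p = 0.0114) and -2.56 in Tet2-Mut (adjusted p = 0.0313). Sun1, which links telomeres to the cytoskeleton and also acts in somatic nuclei, had 7997 ± 354 in Tet2-WT (SD, n = 3), 5678 ± 113 in Tet2-Mut (n = 2) and 5433 ± 863 in Tet2-KO (n = 2), and was lower in both genotypes. Rec114, a partner of Mei4 in break formation, had 260.5, 187 and 230.1 normalized counts in Tet2-WT, 64.9 and 25.1 in Tet2-Mut, and 55.7 and 139 in Tet2-KO, and was lower in Tet2-Mut (-2.44, SE 0.47, adjusted p = 0.0328).

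The cohesin of dividing cells was set beside the meiotic form. Of 9 mitotic cohesin genes, limma called 0 in any comparison, with 3, 2 and 2 at an unadjusted p under 0.05 in Tet2-KO against Tet2-WT, Tet2-Mut against Tet2-WT and Tet2-KO against Tet2-Mut, and their medians were -0.08, 0.04 and -0.11. With edgeR and with DESeq2, Stag2 was called higher in Tet2-KO against Tet2-WT, and 0 genes were called in the others. Among 7 regulators of primordial germ cells, Nanos3, which keeps these cells alive, was lower in Tet2-KO than in Tet2-WT, at 49.6 ± 10.3 normalized counts (SD, n = 2) against 128 ± 17.5 (n = 3), with a log2 fold change of -1.36 (SE 0.32, limma adjusted p = 0.0415). In Tet2-Mut 1 was lower and 0 higher than in Tet2-WT (1.98% and 1.44% of all genes tested), with a median of -0.58. This was Tfap2c, a factor that specifies these cells, with a log2 fold change of -0.64 (limma adjusted p = 0.0493), and edgeR did not call it. DESeq2 also called Prdm14 lower than in Tet2-WT in both genotypes. Between Tet2-KO and Tet2-Mut limma called 0 of the 7, with 4 positive and 3 negative fold changes and a median of 0.37.

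Of 19 genes for repressors of the germline programme, 2 were higher and 0 lower in Tet2-KO than in Tet2-WT. Of all genes tested, 3.0% were called higher and 2.91% lower. E2f6 had 1119, 1053 and 1032 normalized counts in Tet2-WT, 1074 and 1271 in Tet2-Mut, and 1654 and 1503 in Tet2-KO, a rise of 0.56 on the log2 scale against Tet2-WT (SE 0.11, limma adjusted p = 0.022). Dnmt3b, a de novo DNA methyltransferase that is also a gene of the formative state, rose by 1.14 (SE 0.14, adjusted p = 0.00564), with means of 21049 ± 284 (SD, n = 3 Tet2-WT) and 46864 ± 10148 (n = 2 Tet2-KO). In Tet2-Mut 2 were higher and 1 lower than in Tet2-WT (1.44% and 1.98% of all genes tested). Dnmt3a rose by 0.60 (limma adjusted p = 0.0313) and Tfdp1, the dimer partner of E2F proteins, by 0.42 (0.0242). Uhrf1, which guides maintenance methylation, fell by 0.30 (limma adjusted p = 0.0328). Dnmt3a also had a log2 fold change of 0.38 in Tet2-KO against Tet2-WT (limma adjusted p = 0.0825), which DESeq2 called. In Tet2-KO against Tet2-Mut 1 was higher and 1 lower (2.64% and 3.55% of all genes tested). Dnmt3b rose by 0.89 (SE 0.15, limma adjusted p = 0.0111) and Tfdp1 fell by 0.61 (SE 0.08, adjusted p = 0.0045), and E2f6 was called higher by DESeq2 alone. Unlike the members above, these repressor genes were not set beside the medians of their chromosomes. Their part in the levels of the meiosis and germ cell genes was not tested.

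Upstream sequences were found for 31 of the 35 genes, and those of Tex15, Meiob, Majin and Tex11 were not searched. The E2F core TCCCGC, read on both strands, stood in the 250 bases upstream of 14 of the 31 genes (45.2%), beside 29.8% of the promoters of genes in the table and 16.9% of all 27025 promoters of the same length. The E-box CACGTG, which reads the same on both strands, stood in 8 (25.8%), beside 8.24% and 6.05%. Sycp3, Hormad1 and Ddx4 held both motifs, and 12 genes held neither, Stra8 among them. No match of one motif overlapped a match of the other, and each motif contains a CG dinucleotide, of which the 31 windows held a median of 13, beside 15 for genes in the table and 6 for all promoters. Of the 9 genes with a window that were lower in Tet2-KO than in Tet2-WT, 5 held the E2F core and 2 the E-box, and of the other 22 genes 9 held the E2F core and 6 the E-box. A match describes these letters in this window and does not show that a factor binds there, and no test was made of these shares.

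**Figure D4:**
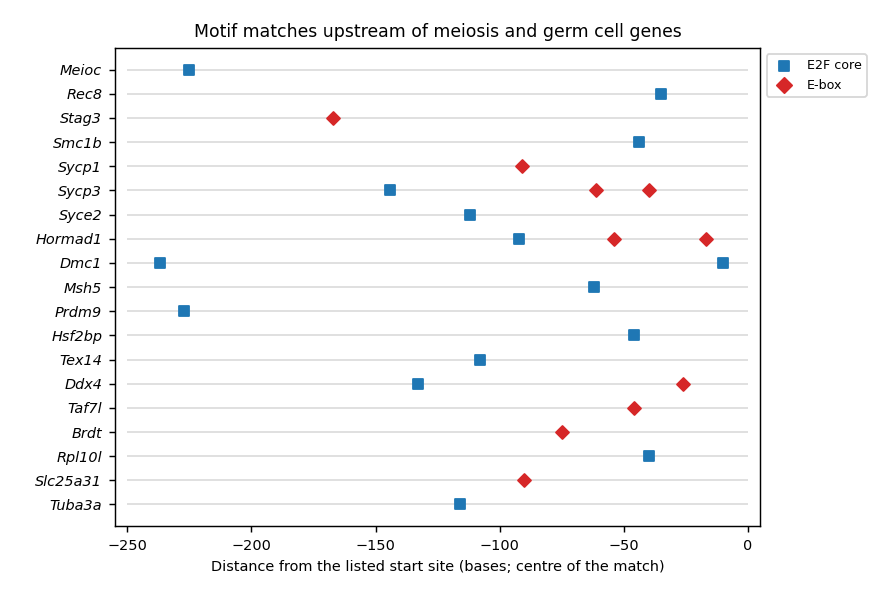
Position of each E2F core (squares) and E-box (diamonds) match within 250 bases upstream of the listed start site, in bases before that site, for the 19 genes with a match. Stag3 has an E-box only, Tex14, Tuba3a, Hsf2bp and Syce2 have an E2F core only, and Sycp3, Hormad1 and Ddx4 have both.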

How the data were processed

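The members of the list, the context lists and the tests were chosen with earlier results of these data known. For 7 RNA-seq libraries the authors deposited a linear signal, read counts per gene scaled by the DESeq2 size factor of each library. The mm10 build and the tools DESeq2, featureCounts, STAR 2.7.3a and Trim Galore 0.6.5 are named in the submitters' processing notes. For annotation and strand the settings are not given in the sources used here, so reads of overlapping genes cannot be told apart. In each library all values were multiples of the worth of 1 read within 0.01 reads, which gave whole reads (41.9 M to 58.5 M per library, a number that limits the precision of genes with low counts). The lowest sum of a gene over the 7 libraries was 71 reads. The 3 bisulfite and 18 CUT&Tag samples were not analysed here.

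Differences were tested with limma 3.58.1 (R 4.3.3) after the transform log2(normalized count + 1), with 1 model of group means over all 7 libraries, a trended prior and Benjamini-Hochberg adjustment over 17338 genes that reached 10 in 2 libraries or more. The shared estimate of the spread can understate that between clones, since the Tet2-WT libraries lay closer together (chi-square per degree of freedom 7.19 to 13.4) than the Tet2-Mut (45.1) or Tet2-KO (34.2) clones. Alternatives were other pseudocounts, filters and scalings, no trend in the prior, only the 2 groups compared, a replicate block, each library left out, and edgeR 4.0.16 and DESeq2 1.42.0 on whole reads. The steps were tested on simulated data. The text names Tet2, all measured members, and from each context list up to 3 genes per comparison with the smallest p. Genes that overlap a member, and the ranges over several libraries, were given beside these after their values were seen. Positions and upstream sequences are from RefSeq for GRCm38.p6, with the first listed window of each gene. Lengths of transcripts were not used here, so levels were not compared between genes.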

Additional observations from a re-analysis of the deposited data

How the results depend on the processing

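The number of members past the test in Tet2-KO against Tet2-WT, Tet2-Mut against Tet2-WT and Tet2-KO against Tet2-Mut (10, 4 and 9 as reported) stayed within 1.5 times under other pseudocounts, filters and scalings and with edgeR. Without a trend in the prior it was 1, 0 and 1 (Dpep3 in both), the 0 by limma beside 11 at an unadjusted p under 0.05. DESeq2 called 15, 7 and 12 and edgeR 9, 4 and 9, both run on all 7 libraries and without a block. With only the 2 groups compared, limma called 0 in Tet2-KO against Tet2-Mut (13 at an unadjusted p under 0.05). Leaving out 1 library gave 2 to 15, 0 to 8 and 4 to 12. Tet2-Mut against Tet2-WT had 0 without Tet2-WT replicate 1, 2 or 3 (8, 7 and 10 at an unadjusted p under 0.05), 2 without Tet2-Mut replicate 2 and 8 without Tet2-Mut replicate 1. Tet2-KO against Tet2-Mut had 4 without Tet2-KO replicate 1 or Tet2-WT replicate 2 and 5 without Tet2-WT replicate 1 or 3. With 1 library left in a group, its spread was assumed to be that of the others. Of the 105 fold changes of members, 25 changed sign with a library left out, 0 of them called. Of the 51 that were called or reached 0.5 in size, which were run under the alternatives, 1 changed sign, that of Majin in Tet2-KO against Tet2-WT (-1.39 without Tet2-KO replicate 2 to 0.052 without Tet2-KO replicate 1), as did that of Tet2 in Tet2-Mut against Tet2-WT (-0.12 without Tet2-Mut replicate 2 to 0.28 without Tet2-Mut replicate 1), and neither was called. Of the 914 alternatives for these 51, 122 lost a call and 31 gained one. The cause of these changes was not tested.

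Replicate numbers name cultures of Tet2-WT and clones of the altered genotypes, and the labels do not say that they pair the libraries. Correlations of same-numbered libraries ran from -0.19 to 0.23. In a group of 2 the deviations from the mean mirror each other, so these values cannot show whether libraries are paired. With a replicate block, in which Tet2-WT replicate 3 has no partner and drops out, limma called 0, 0 and 3 members (17, 10 and 14 at an unadjusted p under 0.05). The 3 were Stra8, Tex15 and Tex14, all lower in Tet2-KO than in Tet2-Mut. Members at few reads, such as Meiob with 7 in a Tet2-KO library, limit what can be detected.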
